A study of Mus musculus with 12 samples.

Results

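The NR4A family of orphan nuclear receptors has 3 members in the mouse, Nr4a1, Nr4a2 and Nr4a3, and all 3 were found by Ensembl identifier among the 55401 genes of whole-kidney RNA-Seq tables. The 12 tables came from male C57BL6 mice, 8 weeks of age, 6 injected once with vehicle (15% 2-hydroxypropyl-beta-cyclodextrin) and 6 with 40 mg/kg SK-124, a small-molecule inhibitor of the salt-inducible kinases SIK2 and SIK3. Each mouse gave 1 library. The interval between injection and kidney collection is not given for these libraries in the sources used here, and whole kidney pools every cell type of the organ, so a change in cell number and a change in RNA per cell cannot be told apart. The comparison asks how far each receptor gene responded to SIK inhibition and whether the 3 genes moved together from mouse to mouse.

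NR4A proteins are transcription factors without a known classical hormone ligand. The space that binds ligand in other nuclear receptors is filled by bulky side chains, so the activity of the family depends largely on how much protein is made. Nr4a1 (Nur77), Nr4a2 (Nurr1) and Nr4a3 (Nor1) share a highly similar DNA-binding domain, bind as monomers or dimers to related DNA elements and are known as immediate-early genes, which are transcribed within a short time of a stimulus. One such stimulus is cAMP, which acts through protein kinase A, the factor CREB and its CRTC coactivators. Salt-inducible kinases phosphorylate CRTC proteins and hold them in the cytoplasm, and parathyroid hormone, which raises cAMP in the proximal tubule, lowers SIK activity.

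The start regions of the genes are shown because CREB binds the cAMP response element, whose half-site is TGACG, or CGTCA when read on the other strand. Sequences are those of RefSeq for GRCm38.p6, 5′ to 3′ on the gene's strand, restricted to bases outside the exons of GENCODE M21, with the half-sites in capitals. The Nr4a1 region is chr15:101266596-101266845 on the plus strand and ends at the base before the RefSeq start used (101266846). The RefSeq gene begins farther upstream, at 101253902. The printed region lies in an intron of 1 longer annotated transcript, which also starts farther upstream. The Nr4a2 region is chr2:57124004-57124253 on the minus strand. For Nr4a3 the RefSeq start used lies inside the first exon of GENCODE M21 and the RefSeq gene begins at 48045078, within the window, so only 30 bases around 2 half-sites are printed, chr4:48045080-48045109 on the plus strand.
Nr4a1: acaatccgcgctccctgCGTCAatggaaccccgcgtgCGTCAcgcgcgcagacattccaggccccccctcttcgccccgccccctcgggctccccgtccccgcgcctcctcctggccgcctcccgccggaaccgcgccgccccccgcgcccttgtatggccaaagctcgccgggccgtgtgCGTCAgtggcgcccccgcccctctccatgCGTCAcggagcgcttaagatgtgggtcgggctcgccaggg
Nr4a2: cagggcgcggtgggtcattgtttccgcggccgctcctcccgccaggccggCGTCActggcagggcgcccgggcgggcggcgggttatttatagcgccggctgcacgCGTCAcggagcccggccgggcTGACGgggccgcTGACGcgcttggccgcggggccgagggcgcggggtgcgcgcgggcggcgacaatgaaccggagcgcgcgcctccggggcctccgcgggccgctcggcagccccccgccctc
Nr4a3: agcgtcccatgtCGTCAcatTGACGtctcg
Each of the 3 windows of 250 bases before the RefSeq start used held 4 half-sites, and in Nr4a3 2 of the 4 fell in the printed stretch. The Nr4a3 half-sites lay at -231, -213, -205 and -147 from the start used (48045305). They are not all upstream of the gene, whose RefSeq model begins at 48045078 and whose first GENCODE exon begins at 48045153. All 4 half-sites of Nr4a1 read CGTCA, whereas Nr4a2 had CGTCA at 2 positions and TGACG at 2 positions. None of the 3 windows contained the palindromic element TGACGTCA, which counts as 2 overlapping half-sites. Of 32851 promoter windows of the same length, 17.8% had at least 1 half-site on either strand and 0.137% had 4 or more. Among the 6582 windows with a GC share at least as high as the 63.6% of Nr4a3, 0.38% had 4 or more, and none of the 61 windows that matched other nuclear receptor genes did. Of 38 windows of 28 immediate-early and cAMP-induced genes, 60.5% had at least 1 half-site, 7.89% had 3 or more and none had 4. The palindromic element was in 10.5% of them, against 1.55% of all windows. In windows of genes tested, 25.1% had at least 1 half-site, 1.36% had 3 or more and 2.38% had the palindromic element. In the 6582 GC-rich windows these shares were 28.0%, 1.64% and 2.75%. The GC share was 74.4% for Nr4a1 and 80.0% for Nr4a2. These matches describe letters and not binding.

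Total expected counts lay between 19244227 and 19771802 per mouse, so depth differed little between mice. The 10 most abundant genes took 39.9% to 43.2% of the counts in vehicle mice, 44.4% to 46.8% in SK-124 mice 1 to 3 and 38.6% to 40.2% in SK-124 mice 4 to 6, and the labels name no batch that goes with this split. Summed kidney epithelial markers ranged from 10270 to 11920 CPM (counts scaled to library size) in vehicle mice and from 10870 to 12670 CPM in SK-124 mice, and all 13 were tested. No gene overlaps any of the 3 loci in the GENCODE M21 annotation.

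Transcripts of all 3 receptors rose after SK-124. The fitted log2 fold change was 2.80 for Nr4a1, 3.60 for Nr4a2 and 5.20 for Nr4a3, and all 3 genes passed edgeR's quasi-likelihood test at a false discovery rate (FDR, Benjamini-Hochberg) under 0.05, where 10.8% of the 14159 genes tested rose. That share is 1536 genes, beside 1917 that fell, and scaling to library totals alone, which put the median over all tested genes at -0.12 (log2), gave 777 and 3058, with all 3 receptors still called higher. All 3 log2 fold changes exceeded 2, which 60 genes (0.424%) did with an FDR under 0.05. By size of log2 fold change over the genes tested, Nr4a3 had rank 2, Nr4a2 rank 14 and Nr4a1 rank 31.

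Nr4a3 (ENSMUSG00000028341.9, chr4:48045153-48086447, plus strand), the member with the largest fold change, was close to undetected in vehicle kidneys. Its expected counts were 5, 3, 0, 1, 5 and 6 in vehicle mice 1 to 6 and 99, 103, 129, 179, 72 and 119 in SK-124 mice 1 to 6. The count of 0 in vehicle mouse 3 allows a level of up to 0.153 CPM (3 counts, counting error only). The lowest, median and highest levels were 0, 0.193 and 0.284 CPM in vehicle mice and 3.61, 6.03 and 8.86 CPM in SK-124 mice. The groups did not overlap, which was so for 6.32% of genes tested with the SK-124 mice on top. The mean went from 0.161 ± 0.116 CPM (SD, n = 6) to 6.25 ± 1.74 CPM (SD, n = 6), a ratio of 38.7, with a log2 fold change of 5.20 (SE 0.32, edgeR FDR 3.26e-09). A 2-sided exact permutation test gave p = 0.00216, the smallest value that 924 assignments of 12 mice can give. The vehicle mean rests on 20 counts summed over 6 mice, and with TPM (transcript abundance per length, scaled to the library) and limma on log2(TPM + 0.1) and log2(TPM + 1) the fold change came to 3.43 and 1.28, past the test with both.

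Nr4a2 (ENSMUSG00000026826.13, chr2:57106830-57124003, minus strand), known for its part in the making of dopamine neurons, was also low in vehicle kidneys. Its expected counts were 8, 7, 4, 10, 13 and 20 in vehicle mice 1 to 6 and 50, 116, 163, 234, 39 and 98 in SK-124 mice 1 to 6. The lowest, median and highest levels were 0.204, 0.450 and 0.948 CPM in vehicle mice and 1.95, 5.87 and 11.6 CPM in SK-124 mice. Every SK-124 mouse again lay above every vehicle mouse, although mouse 5, the lowest of the SK-124 group, was a factor of 5.93 under mouse 4, the highest. The mean went from 0.502 ± 0.259 CPM to 6.22 ± 3.70 CPM (SD, n = 6 each), a ratio of 12.4. The log2 fold change was 3.60 (SE 0.44, edgeR FDR 1.12e-05), and the exact permutation test gave p = 0.00216. With limma on log2(TPM + 1) the fold change was 1.20, which also passed.

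Nr4a1 (ENSMUSG00000023034.7, chr15:101254269-101274795, plus strand) was the most abundant member and the only one whose groups overlapped. Its expected counts were 70, 61, 54, 79, 482 and 118 in vehicle mice 1 to 6 and 378, 666, 1556, 1874, 365 and 661 in SK-124 mice 1 to 6. The lowest, median and highest levels were 2.76, 3.72 and 22.9 CPM in vehicle mice and 18.3, 36.2 and 92.8 CPM in SK-124 mice. Vehicle mouse 5 stood apart from the other vehicle mice, the next of which had 5.59 CPM, and lay above SK-124 mice 1 and 5, so 4 of 6 SK-124 mice were above every vehicle mouse. The mean went from 6.95 ± 7.86 CPM to 48.8 ± 32.8 CPM (SD, n = 6 each), a ratio of 7.02. The log2 fold change was 2.80 (SE 0.52, edgeR FDR 0.000678), with an exact permutation p of 0.00649. Without vehicle mouse 5 it was 3.69 (SE 0.44, edgeR FDR 1.31e-05), about the 3.67 of Nr4a2 in the same fit.

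**Figure D1:**
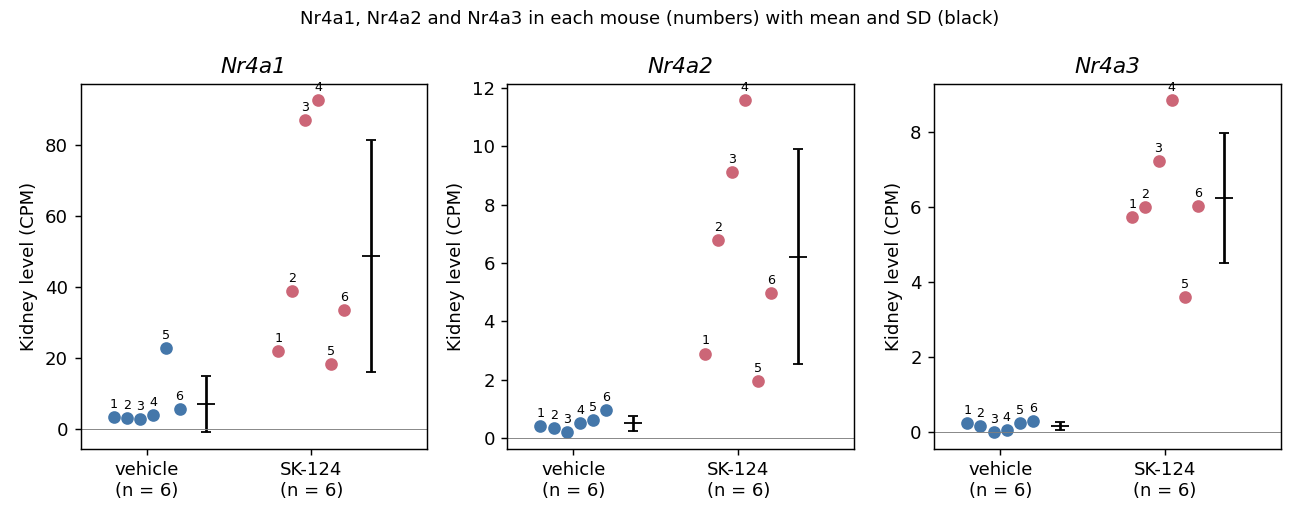
Level of each receptor gene (CPM, linear axis, 1 panel per gene with its own scale) in the 6 vehicle and 6 SK-124 mice, with mouse numbers beside the points and the mean with SD in black. All SK-124 mice lie above all vehicle mice for Nr4a2 and Nr4a3, while for Nr4a1 vehicle mouse 5 (22.9 CPM) lies above SK-124 mice 1 and 5.

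The high Nr4a1 level of vehicle mouse 5 was not shared by the rest of the family. This mouse had 0.617 CPM of Nr4a2 and 0.237 CPM of Nr4a3, both within the range of the other vehicle mice. Among 31 tested genes of a list of immediate-early and cAMP-induced genes, vehicle mouse 5 was the highest vehicle mouse for 23. For 9 of them (Fos, Fosb, Junb, Egr1, Ier2, Btg2, Dusp1, Ccn1 and Zfp36) it had over 2 times the level of every other vehicle mouse. The same counts over all genes tested were not made. Egr1, a zinc-finger factor of the early response, had 215 CPM in this mouse and 5.80 to 18.8 CPM in the other vehicle mice, and Fos, a subunit of the AP-1 factor, had 27.1 CPM against 0.495 to 2.12 CPM. The part of this library's state in its Nr4a1 level was not tested.

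**Figure D2:**
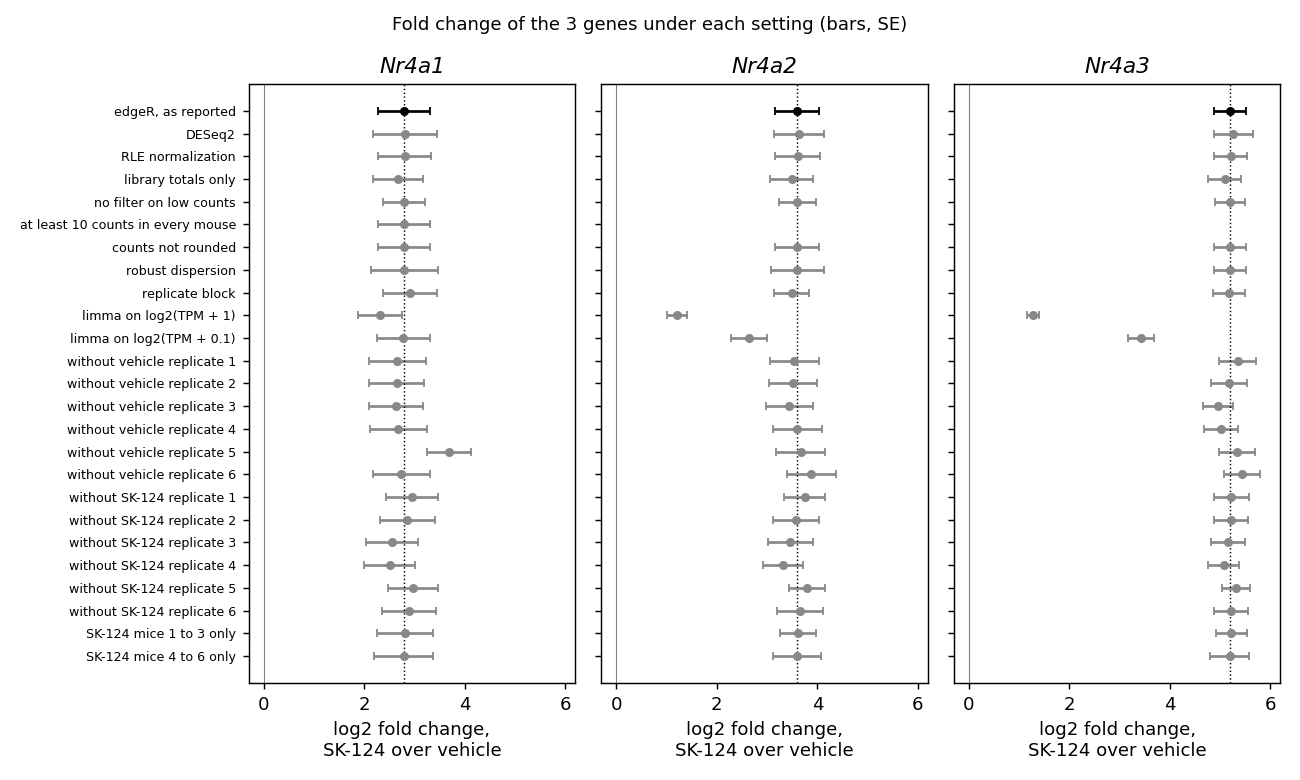
Log2 fold change, SK-124 over vehicle, of each receptor gene under each setting (rows), with SE as bars and the reported edgeR value in black with a dotted line. Values stay above 0 in every row, Nr4a1 moves to 3.69 without vehicle mouse 5, and Nr4a2 and Nr4a3 shrink on the log2(TPM + 1) scale to 1.20 and 1.28. Both have no value where at least 10 counts in every mouse were asked for.

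Whether one member rose more than another was tested on the difference of their log2(CPM + 0.5) values in each mouse, 3 pairs in all, with exact permutation tests and Benjamini-Hochberg adjustment over the 3. Nr4a3 rose more than Nr4a2, by 0.754 (exact p = 0.00866, adjusted p = 0.0260, n = 6 each). In vehicle mice the Nr4a3 value was below that of Nr4a2 in every mouse, with differences from -0.884 to -0.261, and in SK-124 mice the difference ran from -0.368 to 0.876. This call depended on the pseudocount and on single mice, since the adjusted exact p was 0.123 with a pseudocount of 1, 0.227 on log2(TPM + 0.1), and 0.0584 to 0.0844 without vehicle mouse 2, 3, 4 or 6. The difference was 1.45 with a pseudocount of 0.1 (adjusted exact p = 0.00649).

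On log2(CPM + 0.5), neither gene could be separated from Nr4a1 in size of response with all 12 mice. The pseudocount of 0.5 is near the vehicle mean of Nr4a2 (0.502 CPM) and above that of Nr4a3 (0.161 CPM), so it shrinks their rises. The difference was 0.447 for Nr4a3 against Nr4a1 and -0.306 for Nr4a2 against Nr4a1 (adjusted exact p = 0.515 for both). With a pseudocount of 0.1 the first was 1.71 (adjusted exact p = 0.00974) and the second 0.263, while with a pseudocount of 1 the first was -0.146. Without vehicle mouse 5 the second was -0.683 (adjusted exact p = 0.0130). The edgeR log2 fold changes without that mouse were 3.69 for Nr4a1 and 3.67 for Nr4a2, so the gap depended on the scale.

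Within the SK-124 group the 3 receptors ranked the mice almost alike. For Nr4a1 and Nr4a2 the order from high to low was mouse 4, 3, 2, 6, 1 and 5. For Nr4a3 it was mouse 4, 3, 6, 2, 1 and 5, with mice 6 and 2 at 6.03 and 6.02 CPM. On log2(CPM + 0.5), Pearson's r over the 6 mice was 0.963 for Nr4a1 with Nr4a2 (exact p = 0.00694, adjusted p = 0.0139 over 6 relations), and Spearman's rho was 1 (exact p = 0.00278, adjusted p = 0.0167). For Nr4a1 with Nr4a3, r was 0.883 (exact p = 0.00278, adjusted p = 0.00833) and rho was 0.943 (exact p = 0.0167, adjusted p = 0.0250). For Nr4a2 with Nr4a3, r was 0.921 (exact p = 0.00278, adjusted p = 0.00833) and rho was 0.943 (exact p = 0.0167, adjusted p = 0.0250). Leaving out the 2 mice farthest from the median of the first gene gave r = 0.995, 0.784 and 0.836 in the same order.

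These relations weakened on the per-length scale. With log2(TPM + 0.1) the 3 values of r were 0.924, 0.786 and 0.751, with adjusted exact p of 0.108, 0.178 and 0.178. SK-124 mice 1 to 3 and 4 to 6, which differed in the share of the top 10 genes, hold 3 mice each, too few for a within-subset value, and the high and the low mice for the receptors came from both subsets. The fold changes within each subset were close to the pooled ones, 2.82 and 2.79 for Nr4a1, 3.62 and 3.60 for Nr4a2, and 5.22 and 5.19 for Nr4a3.

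In the vehicle group the 6 mice gave no relation that passed by Pearson's r. The r was 0.536 for Nr4a1 with Nr4a2, 0.486 for Nr4a1 with Nr4a3 and 0.706 for Nr4a2 with Nr4a3 (exact p = 0.289, 0.356 and 0.115, adjusted p = 0.347, 0.356 and 0.173). Ranks of Nr4a1 and Nr4a2 did follow each other in vehicle mice (rho = 0.943, exact p = 0.0167, adjusted p = 0.0250), and r without the 2 farthest mice, vehicle mouse 5 among them, was 0.954. Spearman's rho was 0.6 for Nr4a1 with Nr4a3 (exact p = 0.242, adjusted p = 0.242) and 0.714 for Nr4a2 with Nr4a3 (exact p = 0.136, adjusted p = 0.163), where r without the 2 farthest mice fell to 0.228 and 0.0391. At 0 to 6 counts per mouse, an ordering of vehicle mice by Nr4a3 has little precision.

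**Figure D3:**
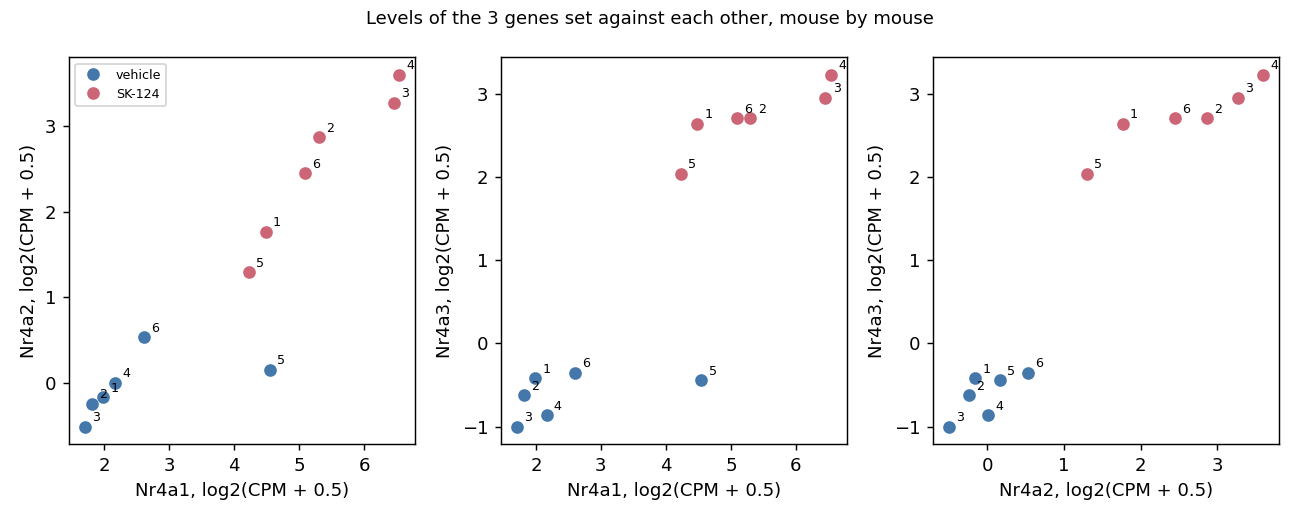
Levels of the receptor genes on log2(CPM + 0.5) set against each other for each pair of genes, 1 point per mouse with its number, vehicle in blue and SK-124 in red. In SK-124 mice the points climb together from mouse 5 to mouse 4 (r = 0.963, 0.883 and 0.921), and vehicle mouse 5 lies to the right of the other vehicle mice in both panels with Nr4a1 on the horizontal axis.

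Compared per length, Nr4a1 was the most abundant member in both groups. In vehicle mice the mean level was 3.21 ± 4.11 TPM for Nr4a1, 0.192 ± 0.106 TPM for Nr4a2 and 0.0617 ± 0.0598 TPM for Nr4a3 (SD, n = 6). Without vehicle mouse 5 the vehicle mean of Nr4a1 was 1.54 ± 0.561 TPM (SD, n = 5). In SK-124 mice the means were 18.2 ± 12.3, 1.92 ± 1.15 and 1.63 ± 0.619 TPM. Nr4a1 exceeded Nr4a2 and Nr4a3 in 6 of 6 mice of each group (exact sign-flip test, p = 0.0312, the smallest that 6 mice allow, adjusted p = 0.0469 over 6 comparisons). The neighbours Nr4a2 and Nr4a3 did not differ beyond their spread. The mean log2(TPM + 0.1) difference between them was 0.853 in vehicle mice, with Nr4a2 higher in 5 of 6 mice (exact p = 0.0625, adjusted p = 0.0750), and 0.0737 in SK-124 mice, with Nr4a2 higher in 3 of 6 (exact p = 0.844, adjusted p = 0.844).

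The summed level of the family was 3.46 ± 4.12 TPM in vehicle mice and 21.7 ± 14.0 TPM in SK-124 mice (SD, n = 6). The vehicle mean was 1.80 ± 0.684 TPM (SD, n = 5) without vehicle mouse 5. The mean share of Nr4a1 in the sum was 88.4% ± 6.28 in vehicle mice and 82.0% ± 4.16 in SK-124 mice. Nr4a2 took 8.62% ± 5.19 and 9.003% ± 2.18, and Nr4a3 took 2.97% ± 3.50 and 8.99% ± 3.66 (SD, n = 6 in each group). The vehicle share of Nr4a3 rests on 0 to 6 counts per mouse and ran from 0% to 8.97%, so it has little precision. A shift in shares between groups was not tested. RSEM's posterior mean TPM, a second estimate in the same tables, gave another picture of the low genes. It put Nr4a2 at 2.63 ± 0.0746 TPM in vehicle mice, above its TPM of 0.192 and with a narrow spread. The estimate ran from 2.56 to 2.75 TPM over vehicle mice with 4 to 20 counts of Nr4a2, so it hardly followed the counts. On this estimate Nr4a1 and Nr4a2 could not be told apart in vehicle mice (mean log2 difference -0.0839, adjusted exact p = 0.938). With it Nr4a2 was above Nr4a3 by 3.30 in vehicle mice and by 1.26 in SK-124 mice (adjusted exact p = 0.0375 for both). The shortest of the 6 annotated Nr4a2 transcripts has 182 bases, where a fraction of a read is worth many TPM. Its part in this estimate was not tested.

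**Figure D4:**
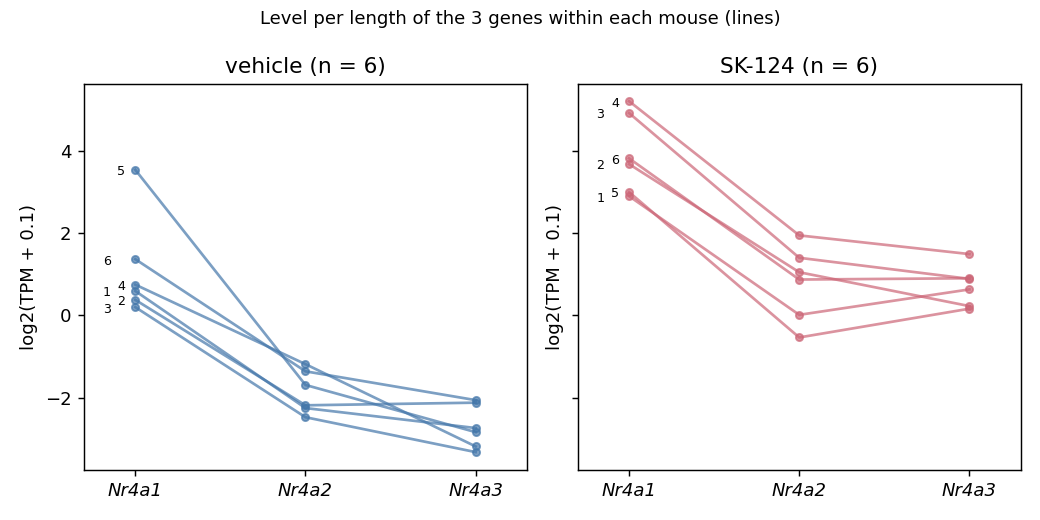
Level per length, log2(TPM + 0.1), of the 3 receptor genes within each mouse, joined by a line, for vehicle (left) and SK-124 (right) mice, with mouse numbers at Nr4a1. Every line falls from Nr4a1 to Nr4a2, and between Nr4a2 and Nr4a3 the lines of SK-124 mice go both ways, up in 3 and down in 3.

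The length RSEM assigns to a gene, a mean over its transcripts weighted by their abundance, showed no group difference that could be detected. For Nr4a1 it was 2402 ± 129 bases in vehicle mice and 2422 ± 33.9 bases in SK-124 mice (SD, n = 6, exact permutation p = 0.920). The lowest value, 2147 bases, belonged to vehicle mouse 5, and the other vehicle mice had 2406 to 2502 bases. Only 3 vehicle mice had at least 10 counts of Nr4a2 and none had that many of Nr4a3, so those genes had no such test at that minimum. With a minimum of 5 counts, 5 vehicle mice remained for Nr4a2, with 2885 ± 812 bases against 2893 ± 239 bases in 6 SK-124 mice (SD, exact permutation p = 0.994).

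Set among the nuclear receptor superfamily, the 3 NR4A genes had the 3 highest fold changes of 38 receptors tested. Of 46 other nuclear receptors, 35 were tested, 5 rose and 10 fell, with a median log2 fold change of 0.0058 against -0.005 over all genes, where 10.8% rose and 13.5% fell. The largest rises after the NR4A genes were those of Esrrb, an oestrogen-related orphan receptor (log2 fold change 1.15, SE 0.07, FDR 1.21e-09), and Rora, an orphan receptor with a role in the circadian clock (1.01, SE 0.10, FDR 7.90e-07). Esrrb went from 22.0 ± 1.56 to 48.8 ± 4.15 CPM and Rora from 24.4 ± 0.606 to 49.2 ± 9.21 CPM (SD, n = 6), both without overlap between groups. The largest falls among the receptors that passed were those of Rarb, a retinoic acid receptor (-0.78, SE 0.18, FDR 0.00375), and Nr3c2, the mineralocorticoid receptor (-0.67, SE 0.10, FDR 0.000127). Nr2f1 had a log2 fold change of -0.68 (SE 0.33, FDR 0.148) and did not pass. Nr5a1, a steroidogenic receptor of the adrenal, had at most 1 count in any mouse.

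**Figure D5:**
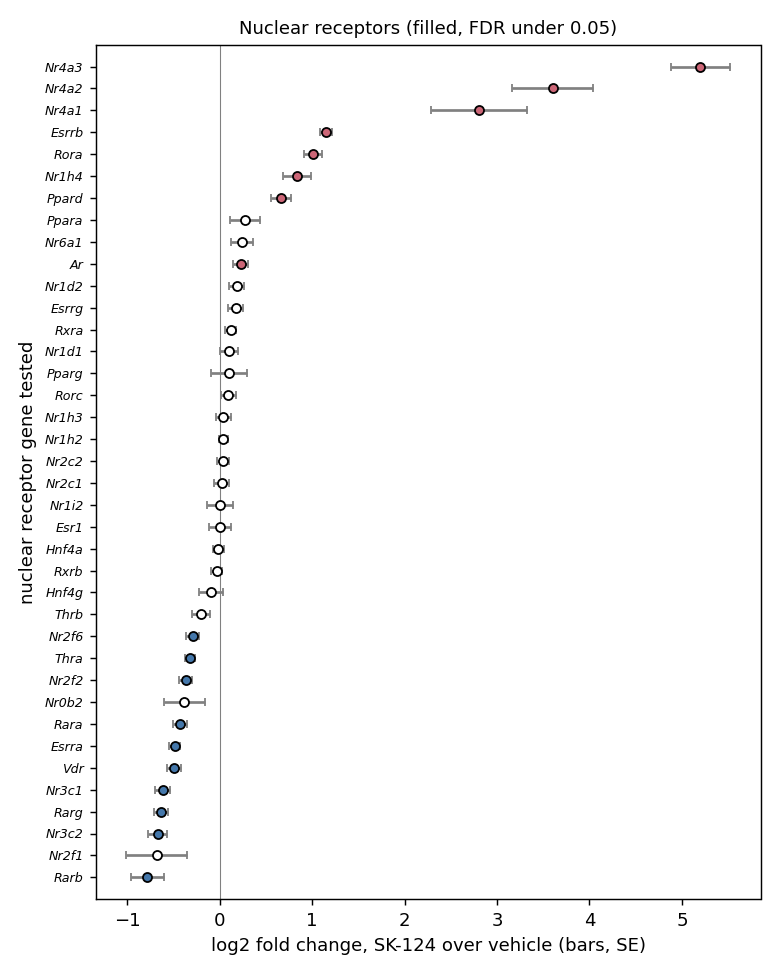
Log2 fold change, SK-124 over vehicle, with SE as bars, of the 38 nuclear receptor genes tested, ordered by value and filled where the edgeR FDR was under 0.05 (red higher, blue lower). Nr4a3, Nr4a2 and Nr4a1 lie at 5.20, 3.60 and 2.80, and the next receptor, Esrrb, at 1.15.

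Genes that act with or upstream of the NR4A receptors were followed as a list of 21 partners and regulators. Of 18 tested, 6 rose and 3 fell, where 10.8% of all genes rose and 13.5% fell, with a median log2 fold change of -0.0038. The lists share genes, so their counts are not separate. Crem and Sik1 are also in the list of immediate-early and cAMP-induced genes, and Rxra, Rxrb and Rxrg among the other nuclear receptors. Crem, whose locus also encodes the cAMP-induced repressor ICER, rose from 5.11 ± 0.671 to 17.1 ± 1.91 CPM (log2 fold change 1.74, FDR 5.50e-10), and Sik1, itself a cAMP-induced kinase gene, rose by 0.80 on the log2 scale (FDR 2.86e-05). The genes of the targeted kinases rose as well, Sik2 by 0.65 (FDR 0.000299) and Sik3 by 0.49 (FDR 6.90e-05). Creb1 and the 3 CRTC coactivator genes did not pass, with log2 fold changes from -0.04 for Creb1 to -0.02 for Crtc2. Mef2c, of the MEF2 factors that act at NR4A promoters in other tissues, fell by 0.80 (FDR 0.000427), from 4.86 ± 0.918 to 2.79 ± 0.437 CPM. The more abundant Mef2d rose by 0.52 (FDR 1.65e-05), from 55.9 ± 4.65 to 80.2 ± 6.16 CPM, and Mef2a had a log2 fold change of 0.02 and did not pass. Of the class IIa histone deacetylase genes, Hdac7 fell by 0.58 (FDR 1.13e-05) and Hdac5 fell by 0.17 (FDR 0.0260), while Hdac4 rose by 0.37 (FDR 0.00945). Rxra and Rxrb, which encode retinoid X receptors, partners of Nr4a1 and Nr4a2, had log2 fold changes of 0.12 and -0.03 and did not pass.

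Of 32 genes reported as NR4A targets in other tissues, 18 were tested, 5 rose and 4 fell, where 10.8% of all genes rose and 13.5% fell, with a median log2 fold change of 0.02. With library totals 3 rose and 4 fell, where 777 of the 14159 genes tested rose and 3058 fell. Pdk4, a kinase that restrains pyruvate oxidation, rose from 15.9 ± 5.22 to 84.4 ± 30.6 CPM (log2 fold change 2.41, SE 0.22, FDR 4.15e-07), and G6pc, which releases glucose, from 300.7 ± 44.4 to 1090 ± 146 CPM (1.86, SE 0.10, FDR 6.75e-10). Pygm, muscle glycogen phosphorylase, fell by 0.56 (FDR 0.00115), and Hsd3b2, a steroid dehydrogenase gene, by 0.45 (FDR 0.00185). Th and Crh, neuronal and neuroendocrine targets, were at 0 in every mouse.

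Immediate-early and cAMP-induced genes, the class to which the receptors belong, rose in larger number. Of 38 listed, 31 were tested, 21 rose and 2 fell, where 10.8% of all genes rose and 13.5% fell, with a median log2 fold change of 1.03. Without vehicle mouse 5 25 rose and 1 fell, with a median of 1.50, while over all genes tested 1381 rose and 1706 fell. Atf3, a stress-induced repressor, rose from 0.442 ± 0.178 to 7.60 ± 5.88 CPM (log2 fold change 4.09, SE 0.54, FDR 2.48e-05), and Cebpd, a bZIP factor of the acute response, from 4.16 ± 1.36 to 56.5 ± 12.7 CPM (3.76, SE 0.18, FDR 1.41e-10). Both lie in the range of the NR4A fold changes. The 2 that fell were Ccn1, a matricellular protein gene (-1.36, SE 0.44, FDR 0.0336), which was among the genes high in vehicle mouse 5, and Ier5 (-0.59, SE 0.10, FDR 0.000459). Fos and Egr1, prototypes of the class, did not pass, with log2 fold changes of 0.13 (SE 0.78) and -0.65 (SE 0.80). Both were high in vehicle mouse 5, at 27.1 and 215 CPM. Fos had 2.43 to 12.1 CPM in SK-124 mice and 0.495 to 2.12 CPM in the other vehicle mice. Egr1 had 9.61 to 74.6 CPM in SK-124 mice and 5.80 to 18.8 CPM in the other vehicle mice, with overlap. SK-124 mouse 4, which had the highest level of all 3 receptors, was also the highest SK-124 mouse for 18 of the 31 genes. The same count over all genes tested was not made.

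The genes whose levels followed each receptor most closely over the 12 mice were sought among the 13008 tested genes whose mean reached 1 CPM, as a description without a test. After removal of group means, Nr4a1 was followed by Bhlhe40 (r = 0.969), Btg2 (r = 0.955) and Wee1 (r = 0.946). Btg2, an antiproliferative early gene, had 18.6 CPM in vehicle mouse 5 and 5.85 to 7.85 CPM in the other vehicle mice, the same mouse that was high for Nr4a1. Nr4a2 was followed by Sncaip (r = 0.921), Hbegf, an EGF receptor ligand (r = 0.890), and Map2 (r = 0.890). Nr4a3 was followed by Sncaip (r = 0.906), Trib1 (r = 0.893) and Slc4a8 (r = 0.875). Of the genes named, Btg2, Wee1, Hbegf and Trib1 rose after SK-124 and Slc4a8 fell (log2 fold change -0.32, edgeR FDR 0.0183). Bhlhe40, Sncaip and Map2 did not pass (edgeR FDR 0.0508, 0.313 and 0.698). Nr4a2 and Nr4a3 had r = 0.857 with each other, with 9 genes closer to Nr4a2 and 6 closer to Nr4a3, whereas 92 genes were closer to Nr4a1 than Nr4a2 was (r = 0.750).

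Without removal of group means, which leaves the difference between groups in the values, the closest genes were Btg2, Wee1 and Trib1 for Nr4a1 (r = 0.986, 0.978 and 0.959). For Nr4a2 they were Gem, Hbegf and Trib1 (r = 0.980, 0.977 and 0.975), and for Nr4a3 Usp53, Herpud1 and Foxo3 (r = 0.993, 0.992 and 0.989). Trib1, a pseudokinase gene, rose from 11.9 to 22.3 CPM (log2 fold change 0.91, FDR 4.43e-05). Foxo3, a forkhead factor, rose from 41.1 to 125 CPM (1.60, FDR 1.41e-10).

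Of the 6 nearest tested genes along the chromosomes, 1 on each side of each receptor, only Grasp passed the test. Over all 14159 genes tested, 24.4% passed in either direction. Grasp (21.5 kb from Nr4a1 on its lower coordinate side) rose from 3.45 ± 0.425 to 6.75 ± 1.08 CPM (log2 fold change 0.97, SE 0.12, FDR 1.14e-05), and Atg101 (9.48 kb away on the other side) had a log2 fold change of 0.15 (SE 0.09, FDR 0.289). The tested genes on both sides of Nr4a3 were Sec61b, 562 kb away, and Stx17, 38.5 kb away, with log2 fold changes of 0.02 (SE 0.10) and -0.02 (SE 0.07). For Nr4a2 they were Gm13502, 3410 kb away, and A930012O16Rik, 112 kb away, with 0.62 (SE 0.35, FDR 0.214) and -0.44 (SE 0.17, FDR 0.0719).

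Across the 6 SK-124 mice no relation of the receptors with the vitamin D enzymes that the study is about was detectable. Pearson's r with Cyp27b1, which makes active vitamin D, was 0.00329 for Nr4a1, -0.00974 for Nr4a2 and -0.306 for Nr4a3. With Cyp24a1, which degrades it, r was 0.309, 0.169 and 0.222. Over these 6 relations the exact p ran from 0.558 to 0.994 and every adjusted p was 0.994, and rho ran from -0.143 to 0.0857 with an adjusted p of 1. With 6 mice, r without the 2 farthest mice ranged from -0.928 to 0.922, so a moderate relation was not detectable.

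Markers of other cells were read beside the receptors, since NR4A genes are also active in immune, vascular and adrenal cells. Shares of all genes called were 10.8% higher and 13.5% lower. With library totals, 777 of the 14159 genes tested were called higher and 3058 lower. Of 15 immune cell markers 8 were tested, 3 rose and 1 fell, but 2 rose and 3 fell with library totals, and the sum of the 15 was 43.8 to 52.1 CPM in vehicle mice and 49.0 to 54.9 CPM in SK-124 mice. The neutrophil genes S100a8 and S100a9 rose to 1.45 ± 0.592 and 1.44 ± 0.514 CPM from 0.161 ± 0.206 and 0.153 ± 0.162 CPM, and the B cell gene Cd79a fell by 1.75 on the log2 scale. Of 8 endothelial markers 2 fell, Kdr (log2 fold change -0.85) and Tek (-0.66), and 5 fell with library totals, with sums of 294.6 to 388.8 CPM in vehicle mice and 237.1 to 363.7 CPM in SK-124 mice. Of 12 adrenal markers 2 were tested and Akr1b7 rose (log2 fold change 0.91). Cyp11b2, Cyp21a1, Th and Pnmt were at 0 in every mouse, and the other untested adrenal markers had at most 8 counts in any mouse (Mc2r). The sum was 1.14 to 1.94 CPM in vehicle mice (median 1.685) and 1.51 to 3.76 CPM in SK-124 mice (median 2.981). None of 5 adipocyte markers was tested, with sums of 0.0511 to 13.2 CPM in vehicle and 0.150 to 8.63 CPM in SK-124 mice, and none of 5 red cell markers was called, with sums of 456.9 to 1257 and 547.2 to 784.5 CPM. Among the kidney epithelial markers, Aqp2 rose (log2 fold change 0.75) and Atp6v1b1 fell (-0.21). The part of other cells in the receptors' rise was not tested.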

How the data were processed

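Whole-kidney RNA-Seq libraries of 6 vehicle and 6 SK-124 mice, grouped by their treatment labels, were read from the authors' RSEM gene tables. Per the submitters' processing notes, reads were handled with FastQC, STAR 2.7.2b and RSEM 1.3.0 on mm10, and DESeq2 is named. The annotation and the use of strand are not given in the sources used here. The deposited expected counts are RSEM estimates of reads per gene without normalization. The deposited TPM and FPKM values were scaled by the authors' RSEM run to effective length and library total, as was its posterior mean TPM. Of 55401 identifiers, 54349 matched GENCODE M21 with their version.

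Expected counts were rounded, filtered with filterByExpr, scaled by TMM and tested with edgeR 4.0.16 (R 4.3.3) by quasi-likelihood, without a replicate block, with FDR by Benjamini-Hochberg over 14159 genes. SE is the log2 fold change over the square root of the F statistic. DESeq2 1.42.0 and limma 3.58.1 served as alternatives. Single genes, pairs and correlations were tested 2-sided by exact permutation on log2(CPM + 0.5), and levels per length by sign flips on log2(TPM + 0.1). Scripts ran on Python 3.11.15 with numpy 2.4.6, pandas 2.3.3, scipy 1.17.1 and matplotlib 3.10.9, and the fits across all genes were tested on simulated counts. Each library is 1 mouse, and p-values measure the spread between these mice. Between any 2 mice of a group (30 comparisons) chi-square was at least 4.41 per degree of freedom, so no library looked deposited more than once.

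The 3 members, all gene lists and tests were chosen with earlier results of these data known. Genes named were the members, the 2 called genes at each end of each list, the 3 genes most like each member, the nearest tested gene on each side, and those on which a sentence turns. The agreement with Cyp27b1 and Cyp24a1, the posterior mean TPM, and the TPM means and list counts without vehicle mouse 5 were added after the data were seen. The values of 1 kidney marker gene are not reported here. Promoter windows took 250 bases before the RefSeq start used.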

Additional observations from a re-analysis of the deposited data

Results flagged for a closer look

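Nr4a1 in vehicle mouse 5 was far from the other 5 vehicle mice on both scales. It had 22.9 CPM (22.86), with a gap to the next mouse of 0.859 of the group's range, and 11.5 TPM (11.53), with a gap of 0.864, where Dixon's critical value for 6 mice is 0.625. Of 12 groups tested (3 genes, 2 groups, CPM and TPM), these 2 passed, and both are the same mouse and gene. Chance alone passes about 1 group in 20. Nr4a2 and Nr4a3 of the same mouse, and all 3 genes in the SK-124 group, were not far from the rest by this measure. The cause was not tested.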

How the results depend on the processing

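Nr4a1, Nr4a2 and Nr4a3 rose with an FDR under 0.05 under all 24, 23 and 23 alternatives that gave a value, with log2 fold changes of 2.31 to 3.69, 1.20 to 3.88 and 1.28 to 5.43, the low ends from limma on log2(TPM + 1). A minimum of 10 counts in every mouse removed Nr4a2 and Nr4a3, whose vehicle counts limit precision, and gave them no value. Without 1 mouse at a time the ranges were 2.51 to 3.69, 3.32 to 3.88 and 4.96 to 5.43. With the replicate number as a block (replicate block) the fold changes were 2.91, 3.49 and 5.17 and 3466 genes were called instead of 3453. Deviations of same-numbered mice correlated from -0.131 to 0.217, 2 of 6 numbers best with their own. These 6 values, without a test, cannot decide whether the numbers pair mice. The block changed no call of the 3 genes.

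The number of genes called was 2298 with SK-124 mice 1 to 3 only and 2960 to 3942 without 1 mouse at a time. Library totals gave 777 higher and 3058 lower calls (20.3% higher, against 44.5% of calls with TMM), with a median log2 fold change over all genes of -0.12. Limma gave 497 higher calls on log2(TPM + 1) (19.4%) and 493 on log2(TPM + 0.1) (18.8%). Lower calls numbered 1233 with SK-124 mice 1 to 3 only and 1267 with mice 4 to 6 only, against 1917. With library totals 4 other nuclear receptors were higher and 11 lower, and 20 immediate-early genes higher and 2 lower. Kidney epithelial markers were 1 higher and 2 lower, against 2 and 1. Reported targets called higher were 3 with library totals against 5, and immediate-early genes called lower 1 without vehicle mouse 5 against 2.

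For the difference between Nr4a3 and Nr4a2, 0.505 with a pseudocount of 1 and 0.779 on log2(TPM + 0.1) did not pass, and values without 1 mouse ran from 0.613 to 0.862. Nr4a3 against Nr4a1 was 1.71 with a pseudocount of 0.1 (passed) and -0.146 with 1. Nr4a2 against Nr4a1 was 0.263 with 0.1 and -0.683 to -0.217 without 1 mouse, passing only without vehicle mouse 5. The correlations of 0.924, 0.786 and 0.751 on log2(TPM + 0.1) did not pass. With posterior mean TPM, Nr4a1 and Nr4a2 could not be told apart in vehicle mice (-0.0839, which did not pass). It separated Nr4a2 from Nr4a3 by 3.30 in vehicle and 1.26 in SK-124 mice.

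With 5 mice the sign-flip test cannot go below 0.0625, so no order of levels passed without 1 mouse. Nr4a1 stood above Nr4a2 by 2.55 to 3.21 in vehicle and 3.05 to 3.23 in SK-124 mice and above Nr4a3 by 3.34 to 4.12 and 3.04 to 3.39, and Nr4a2 less Nr4a3 in SK-124 mice was -0.0761 to 0.228. The Nr4a1 length difference, 19.2 bases, was -31.8 to 39.1 without 1 mouse, below 0 without vehicle mouse 5. Other causes of these shifts were not tested.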
